A study of Mus musculus with 2 samples.

Results

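Mir148a, Mir148b and Mir152 are the mouse genes of the miR-148/152 family, microRNAs whose main strand carries the same seed, the stretch of bases near the 5′ end that pairs with target messages. They were taken by symbol from GENCODE M21, and all 3 were found among the 1973 microRNA genes counted. Both samples were livers of B6NCrl mouse embryos at day 11.5, each a pool of healthy embryos of both sexes, and short RNA of fewer than 30 bases was sequenced. The labels call them biological replicates 1 and 2. Replicate 1 pooled 109 embryos, and the pool size of replicate 2 is not given in the sources used here. There was 1 group with no treatment, no genotype contrast and no later stage. The question the design allows is which part of the assigned reads each family member takes at day 11.5, and how far 2 pools differ.

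The libraries held 3344673 and 1584499 reads assigned to a microRNA gene on its own strand, in replicates 1 and 2. Levels are counts per 1000000 assigned counts (CPM), and a count of 0 allows up to 3 counts, or 0.897 and 1.89 CPM. Markers of several cell types of the liver were present. The hepatocyte gene Mir122 had 30679 and 34487 CPM, the endothelial Mir126a 57443 and 80051 CPM, the erythroid Mir451a 7495 and 9793 CPM, the myeloid Mir223 4934 and 5087 CPM, and the smooth muscle Mir143 11472 and 23595 CPM. The detected genes of these lists, out of those counted, were 5 of 9 (hepatocyte and endoderm), 1 of 1 (endothelial), 3 of 3 (erythroid), 3 of 5 (leukocyte) and 6 of 6 (mesenchymal and smooth muscle), where detected means at least 10 counts in both libraries. Each gene given a level here is the highest counted of its list, and other fixed markers were lower. Mir802 had 9 and 3 counts, Mir194-1 48 and 8, Mir150 137 and 45, and Mir199a-1 29 and 14. Higher among them were Mir214 at 9911 and 8782 CPM, Mir192 at 928 and 1560, Mir145a at 475 and 478, Mir144 at 460 and 1214. Mir199a-2 had 110 and 80.8 CPM. Mir194-2, not a fixed marker but in the hepatocyte and endoderm list, had 1423 and 814 CPM, far above Mir194-1. The fixed marker Mir142 was not among the 5 counted leukocyte genes, where Mir142b had 2 and 3 counts. Whole livers were used, so the cells that made each RNA are not known, and fewer cells of a type cannot be told apart from less RNA per cell.

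MicroRNAs are cut from a hairpin precursor, and the strand kept by an Argonaute protein guides it to messages that match the seed, which are then repressed. The miR-148/152 family is known for repressing Dnmt1, the enzyme that copies DNA methylation after replication. Mir148a is an abundant microRNA of the adult liver, where it is known to repress the low-density lipoprotein receptor and the cholesterol exporter Abca1.

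The mature 3p strands are shown because they define the family. The seed, bases 2 to 8 from the 5′ end, is in capitals, and the sequences are those of RefSeq on GRCm38.p6, which held all 3 members.
miR-148a-3p: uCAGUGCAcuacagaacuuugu
miR-148b-3p: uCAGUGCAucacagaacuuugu
miR-152-3p: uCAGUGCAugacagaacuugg

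The 3 strands shared the seed CAGUGCA and differed just behind it. Counting from 1 at the 5′ end, with the base of the strand named first written first, miR-148a-3p and miR-148b-3p differed by C9U and U10C and were identical at 20 of 22 bases. From miR-148a-3p to miR-152-3p the changes were C9U, U10G and U20G, and from miR-148b-3p to miR-152-3p they were C10G and U20G. Those pairs were identical at 18 and 19 of the 21 bases compared. Among 1738 mature mouse sequences in the RefSeq table, 3 (0.173%) had CAGUGCA at bases 2 to 8, and these were the 3 members.

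The same letters open another family. In 7 of the 1738 mature sequences (0.403%) CAGUGCA stood at bases 1 to 7, shifted by 1 base, so that their own seed began with AGUGCA. Mir130a, Mir130b and Mir301, which were well expressed in these livers, are among them, each with the seed AGUGCAA. They are printed with the shared letters in capitals.
miR-130a-3p: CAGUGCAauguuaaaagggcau
miR-130b-3p: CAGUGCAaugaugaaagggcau
miR-301a-3p: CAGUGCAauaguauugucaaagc

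The precursors are shown next because the files count reads per gene, over the whole hairpin, so that the arms cannot be told apart. Both mature arms are in capitals, the 5p arm before the 3p arm.
Mir148a: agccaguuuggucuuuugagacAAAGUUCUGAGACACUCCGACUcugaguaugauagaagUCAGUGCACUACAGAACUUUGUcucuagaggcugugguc
Mir148b: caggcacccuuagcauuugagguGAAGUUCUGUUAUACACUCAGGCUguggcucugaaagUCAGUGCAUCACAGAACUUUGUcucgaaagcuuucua
Mir152: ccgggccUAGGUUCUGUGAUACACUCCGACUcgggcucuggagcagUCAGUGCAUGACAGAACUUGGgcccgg

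The 5p arms differed at more bases than the 3p arms. Compared base by base from the 5′ end without gaps, the 5p arms of Mir148a and Mir148b were identical at 13 of 22 bases, those of Mir148a and Mir152 at 12 of 22, and those of Mir148b and Mir152 at 19 of 24. A comparison without gaps misses shifted matches: the 5p arms of Mir148a and Mir152 also share a run of 11 bases, longer than the 9 of their 3p arms. Bases 2 to 8 of the 5p arm read AAGUUCU in Mir148a and Mir148b and AGGUUCU in Mir152. The Mir152 precursor was the shortest, at 73 bases against 99 for Mir148a and 97 for Mir148b, and the richest in G and C, at 61.6% against 45.5% and 45.4%. The predicted minimum free energy of folding was -43.5 kcal/mol for Mir152, -41.0 for Mir148a and -30.9 for Mir148b. The longest run of bases shared by 2 members' precursors was 15, between Mir148a and Mir148b. With the 866 other counted genes that have a RefSeq precursor, the longest shared run was 12 bases. A read of a full mature strand, of 21 to 24 bases, therefore matches 1 precursor alone, without mismatch, among these. Matches elsewhere in the genome were not searched.

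The members sit on 3 chromosomes, each apart from other microRNA genes. Coordinates are those of mm10, and the identifiers in the files agree in version with GENCODE M21 for all 3. Mir148a (ENSMUSG00000065505.1) lies at chr6:51269812-51269910 on the minus strand, and no other gene overlaps it. Mir148b (ENSMUSG00000065560.1) lies at chr15:103285125-103285221 on the plus strand, in intron 1 of Copz1. Mir152 (ENSMUSG00000065515.1) lies at chr11:96850393-96850465 on the plus strand, in intron 1 of Copz2. Copz1 and Copz2 encode the zeta subunits of the coatomer, which coats vesicles that move between the Golgi and the endoplasmic reticulum. M21 has 2 protein-coding Copz genes, so each hosts 1 member, on the same strand as the host. The introns differ in size: intron 1 of Copz1 has 16159 bases and that of Copz2 has 676. The nearest other microRNA gene of M21 was 351721 bases away for Mir148a, 65233 for Mir148b and 213302 for Mir152.

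The genes around the 3 members were also related to one another, a comparison chosen after the locations had been seen. Each member had a gene of the Nfe2 family of transcription factors near it, Nfe2l3 at 163 kb from Mir148a, Nfe2 at 26.7 kb from Mir148b and Nfe2l1 at 20.4 kb from Mir152. Nfe2 itself is known as a regulator of globin genes in red cell precursors. M21 has 4 genes of that family, and the remaining gene, Nfe2l2, lies on chromosome 2, where there is no member. Each also had a gene for a heterochromatin protein 1 near it, Cbx3 at 200 kb from Mir148a, Cbx5 at 45.3 kb from Mir148b and Cbx1 at 41.8 kb from Mir152. None of these genes was measured here, since the files hold microRNA genes only.

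All 3 members were detected, and Mir148a was the highest in both libraries. Mir148a had 5769 counts in replicate 1, or 1725 CPM (95% exact Poisson interval 1681 to 1770), and 1942 counts in replicate 2, or 1226 CPM (1172 to 1281). Its mean was 1475 ± 353 CPM (SD, n = 2). Replicate 1 was the higher, and the intervals of the libraries did not overlap. No molecular identifiers are named in the sources, so reads are not independent molecules and all intervals cover counting error only.

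Mir148b, in Copz1, had 2385 counts in replicate 1, or 713 CPM (685 to 742), and 793 counts in replicate 2, or 500 CPM (466 to 537). Its mean was 607 ± 150 CPM (SD, n = 2), again with replicate 1 the higher and the intervals apart. Mir152, in Copz2, had 509 and 230 counts, or 152 CPM (139 to 166) and 145 CPM (127 to 165), with a mean of 149 ± 4.97 CPM (SD, n = 2). Unlike those of its relatives, the intervals of Mir152 in the 2 libraries overlapped.

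The order of the members was the same in both pools: Mir148a, then Mir148b, then Mir152. Their ranges over the libraries did not overlap, from 1226 to 1725, 500 to 713 and 145 to 152 CPM. A short RNA read spans a whole mature strand, and the 3p strands have 21 or 22 bases, so levels were compared per gene. Per base of precursor the shares within the family kept this order. By mean CPM, Mir148a ranked 96 among all counted genes, Mir148b 138 and Mir152 203, with 347 genes detected. By library, Mir148a ranked 88 and 100, Mir148b 132 and 140, and Mir152 203 and 202.

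**Figure D1:**
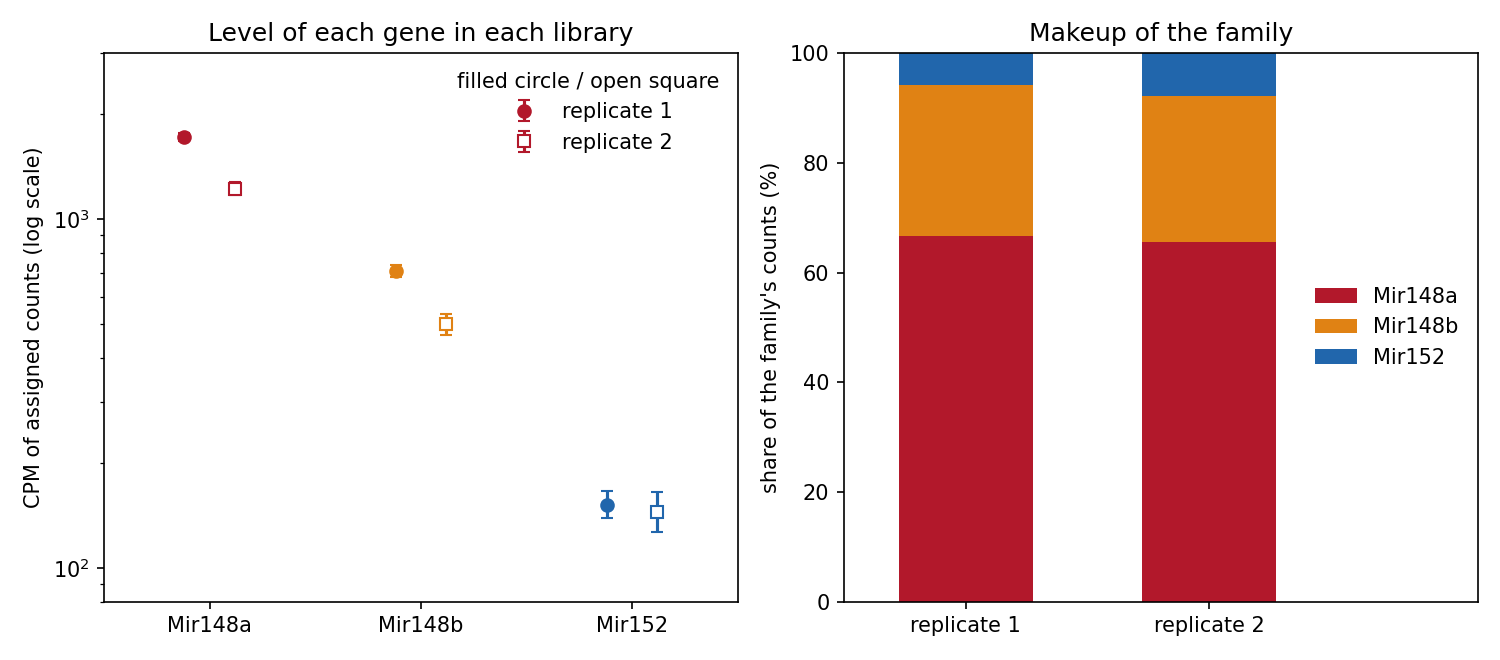
On the left, the level of each gene in each library in CPM on a log axis, with filled circles for replicate 1, open squares for replicate 2 and bars for the 95% exact Poisson interval. On the right, the share of each gene in the family's counts, in percent; Mir148a fills 66.6% and 65.5% of the bars.

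Mir148a made up nearly the same part of the family in both pools, at 66.6% of the family's counts in replicate 1 (95% Clopper-Pearson interval 65.6 to 67.6) and 65.5% in replicate 2 (63.8 to 67.2). Mir148b made up 27.5% (26.6 to 28.5) and 26.7% (25.2 to 28.4). For both genes the intervals of the libraries overlapped. Mir152 made up 5.88% (5.39 to 6.39) and 7.76% (6.82 to 8.78), and these intervals did not overlap. These shares use counts of 1 library at a time and do not depend on how libraries are scaled.

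The ratio of Mir148a to Mir148b was 2.42 in replicate 1 (2.31 to 2.54) and 2.45 in replicate 2 (2.25 to 2.66). These ratios differed by less than their counting intervals. Mir148a stood 11.3-fold above Mir152 in replicate 1 (10.4 to 12.4) and 8.44-fold in replicate 2 (7.36 to 9.72). Mir148b, whose host is the paralogue of the host of Mir152, stood 4.69-fold above Mir152 (4.26 to 5.17) and 3.45-fold (2.97 to 4.01). Both ratios to Mir152 were lower in replicate 2, with intervals that did not overlap. Of the members, Mir152 has the fewest counts and so the widest relative interval.

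Between the libraries, Mir148a and Mir148b were lower in replicate 2 by about the same amount, and Mir152 was level. Libraries were scaled by the trimmed mean of M values (TMM) and each gene was tested with a two-sided exact binomial test, adjusted by Benjamini-Hochberg over 454 genes with at least 10 summed counts. The test takes account of counting noise alone, and sets 1 library against the other rather than conditions. The log2 ratio of replicate 2 over replicate 1 was -0.43 for Mir148a (adjusted p = 1.42e-30, exact binomial test), a 1.35-fold difference. It was -0.45 for Mir148b (adjusted p = 3.63e-14, exact binomial test), or 1.36-fold, and -0.0047 for Mir152 (adjusted p = 1, exact binomial test). The median of the 3 log2 ratios was -0.43, against 0.01 over all tested genes.

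A gene was called where the adjusted p was under 0.05 and the difference at least 2-fold. By that rule 0 of the 3 members were called, as their folds lie under 2, with a background of 7.27% of the tested genes (33 of 454). Of those, 11 (2.42%) were higher in replicate 1 and 22 (4.85%) in replicate 2, or 15 and 19 when libraries were scaled by total assigned counts. At an adjusted p under 0.05 and any fold, 2 of the 3 members passed, both higher in replicate 1. The background was 49.1% in either direction and 23.1% higher in replicate 1. It covers all 454 tested genes, and genes of few counts pass less easily. With edgeR's exact test and an assumed biological coefficient of variation of 0.2, the adjusted p was 0.792 for Mir148a, 0.777 for Mir148b and 1 for Mir152, and 1 gene was called in all.

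Among the 257 tested genes whose counts averaged at least 100, the median difference between the libraries was 1.28-fold. A larger fold than that of Mir148a was seen in 103 of these genes (40.1%), larger than that of Mir148b in 99 (38.5%) and larger than that of Mir152 in 255 (99.2%). The differences of Mir148a and Mir148b were thus of a usual size for these pools, and Mir152 was among the genes that differed least with TMM scaling. Its place rests on 509 and 230 counts and on the scaling. The log2 ratio of Mir152 was -0.0047 with TMM and -0.066 with total assigned counts. Counting error was not taken into account in these places.

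**Figure D2:**
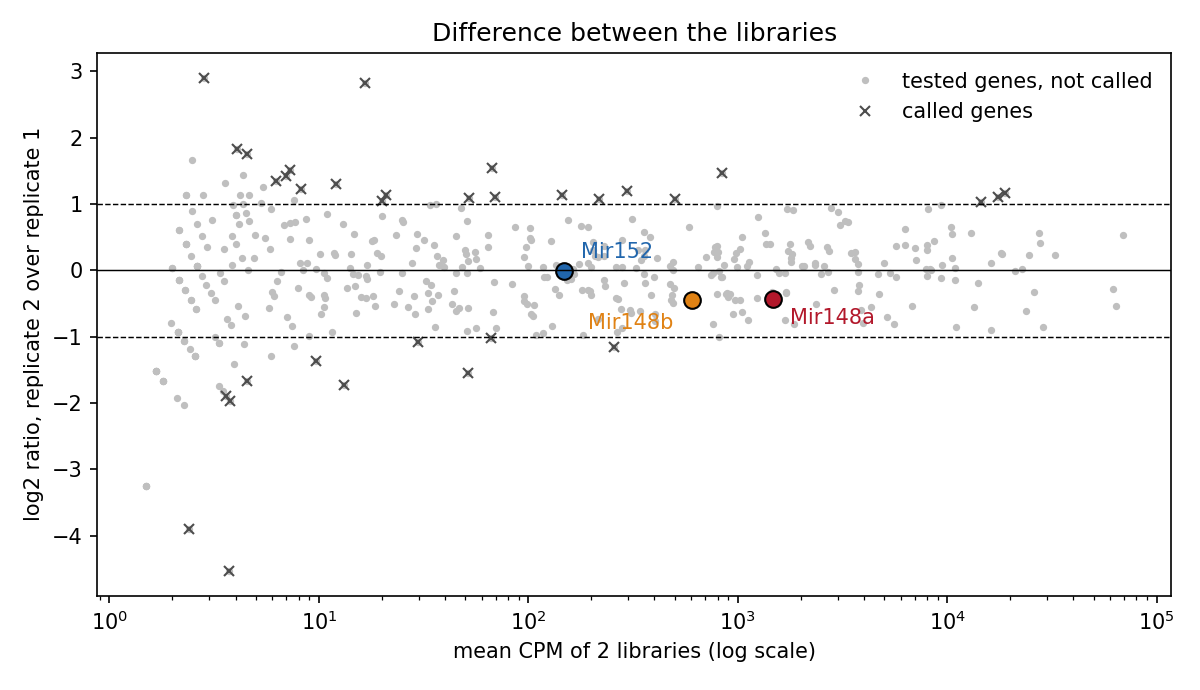
The log2 ratio of replicate 2 over replicate 1 (vertical axis, TMM scaling) against mean CPM on a log axis, for 454 tested genes. Crosses are the 33 called genes and dashed lines mark 2-fold; Mir148a and Mir148b lie side by side at -0.43 and -0.45, and Mir152 lies on the line of no difference.

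The family was a small part of the reads assigned to microRNA genes in the day 11.5 liver. It took 0.259% of the assigned counts in replicate 1 (95% Clopper-Pearson interval 0.254 to 0.265) and 0.187% in replicate 2 (0.180 to 0.194), a mean of 0.223 ± 0.0508% (SD, n = 2). In CPM its sum was 2590 and 1871, with a mean of 2231 ± 508. These are shares of reads, and how evenly different microRNAs turn into reads was not tested. Mir122, the leading microRNA of hepatocytes, exceeded Mir148a 17.8-fold in replicate 1 (17.3 to 18.3) and 28.1-fold in replicate 2 (26.9 to 29.5). The endothelial Mir126a exceeded it 33.3-fold (32.4 to 34.2) and 65.3-fold (62.5 to 68.3). Mir122 and Mir126a were lower and Mir148a higher in replicate 1, so that both ratios were larger in replicate 2.

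**Figure D3:**
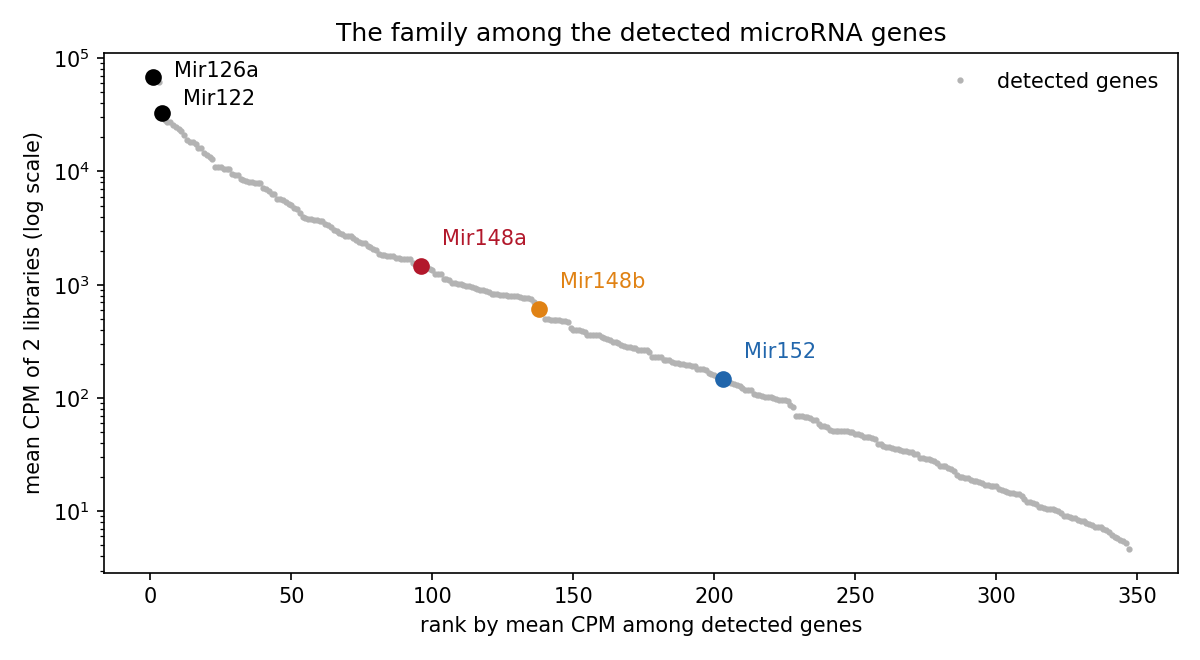
Mean CPM of 2 libraries (log axis) of the 347 detected genes in order of rank, with the family in colour and Mir126a and Mir122 in black. Mir148a stands at rank 96, Mir148b at 138 and Mir152 at 203.

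The genes nearest to each member in level came from other groups. Likeness was the distance between log2(CPM + 1) values over the 2 libraries, the only samples there were. Nearest to Mir148a were the epithelial Mir200c, at 1644 and 1262 CPM (distance 0.08), and Mir302d, known from pluripotent cells, at 1760 and 1306 CPM (0.10). Nearest to Mir148b were the epithelial Mir205, at 650 and 646 CPM (0.39), and Mir96, known from sensory cells, at 554 and 440 CPM (0.41). Nearest to Mir152 were Mir675, made from the imprinted H19 transcript, at 164 and 142 CPM (0.11), and Mir200a, at 172 and 150 CPM (0.18). The range of each neighbour of Mir148a and Mir152 overlapped that of the member, as did those of Mir205 and Mir148b, where Mir205 was below Mir148b in replicate 1 and above it in replicate 2. Mir96 also overlapped with Mir148b in range but was lower in each library.

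Set among 19 microRNA families listed by symbol, the family stood at rank 11 by summed CPM in both libraries. The nearest above were Mir101, at 2664 and 4225 CPM, and Mir181, at 10615 and 7945 CPM. Below came Mir192 and Mir215, known from the gut and liver epithelium, at 933 and 1565 CPM, and Mir194, from the same clusters, at 1438 and 819 CPM. The range of the Mir148 and Mir152 sum, 1871 to 2590 CPM, overlapped with that of none of these 4. By mean CPM per detected gene the family ranked 13. These ranks depend on which families were listed. Mir126a, at 57443 and 80051 CPM, and Mir17, at 77281 and 51029 CPM, are in none of the 19. Reads that match several places were not counted, which can lower the sum of a family that has near-identical copies.

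The Mir130 and Mir301 family, in which Mir130a, Mir130b and Mir301 share the letters CAGUGCA in the shifted frame shown above, was far more abundant. Its 4 counted genes summed to 33888 CPM in replicate 1 and 34931 in replicate 2, a mean of 34410 ± 737 (SD, n = 2), at rank 5 by mean. Mir130a led with 23239 and 26007 CPM, followed by Mir130b with 8364 and 7590 CPM. Mir301 had 2135 and 1216 CPM, close to Mir148a, and Mir301b had 149 and 118 CPM, close to Mir152. Mir301b is in the sum, but no sequence of it was among those found with these letters. The 6 counted genes with the letters at bases 1 to 7 summed to 33739 and 34813 CPM. With a log2 ratio of -0.75 (adjusted p = 6.84e-99, exact binomial test), Mir301 also was lower in replicate 2.

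**Figure D4:**
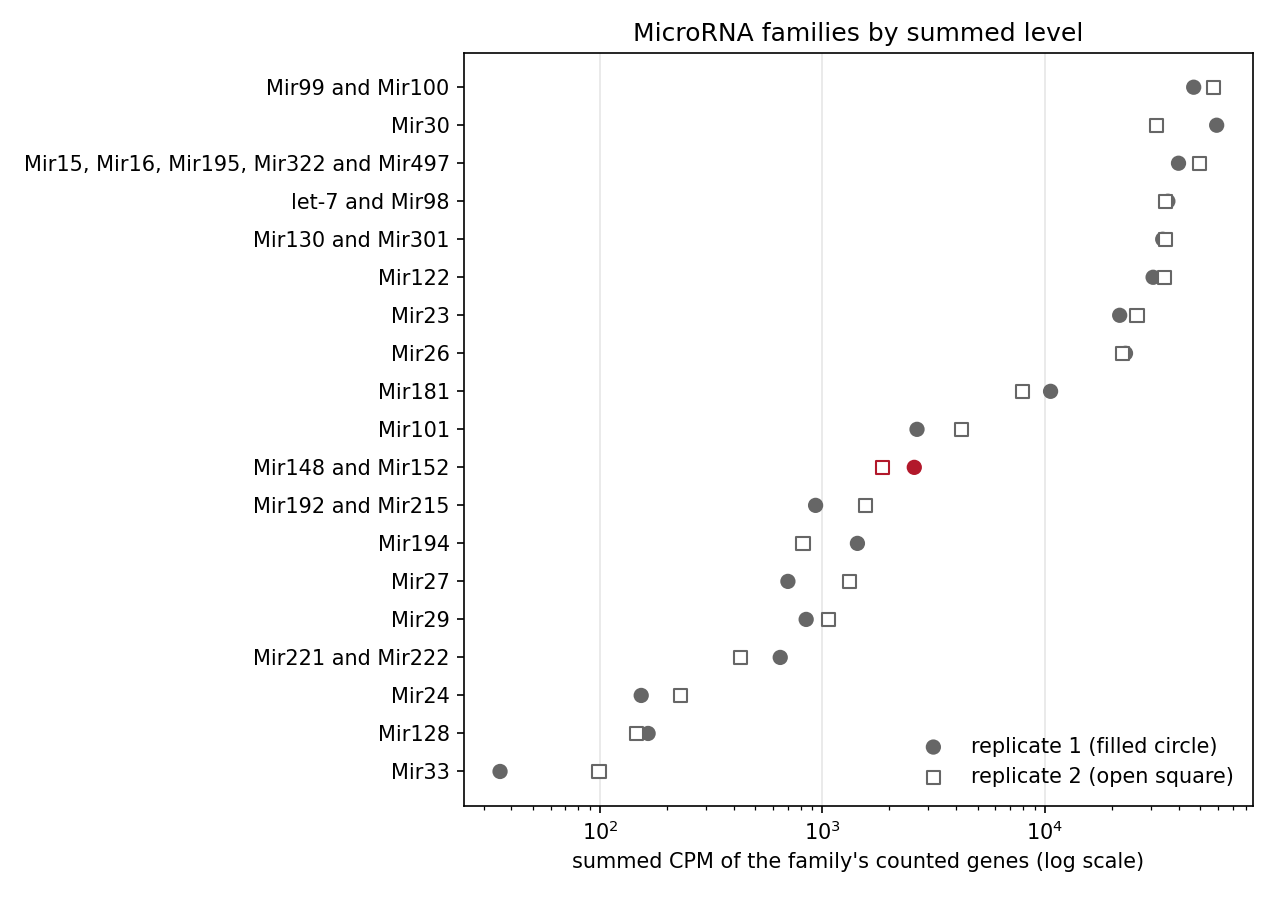
Summed CPM of each of 19 microRNA families (log axis), with filled circles for replicate 1 and open squares for replicate 2. The Mir148 and Mir152 family, in red, stands at 2590 and 1871 CPM, at rank 11 in both libraries.

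Other microRNAs known to repress DNA methyltransferases were present beside the family. Of the 12 genes in that list, the 3 members included, 11 were detected, and all 12 together summed to 23649 and 34562 CPM. Its highest genes were Mir143, which has been reported to repress Dnmt3a, at 17534 ± 8573 CPM, and Mir342, known as a repressor of Dnmt1, at 3948 ± 1597 CPM (SD, n = 2). Mir148a ranked below these and below Mir101b, at 3359 ± 1079 CPM. In the Mir29 family, which represses Dnmt3a and Dnmt3b, 3 of 4 genes were detected, with a sum of 846 and 1063 CPM. That was below the 2590 and 1871 CPM of the Mir148 and Mir152 family in each library. Reads that match several places were not counted, which can lower the sum of a family with near-identical copies. Of the 12 genes, Mir143 alone was called, higher in replicate 2 with a log2 ratio of 1.10, a share near the background of 7.27%. The median log2 ratio of the list was 0.02, against 0.01 over all tested genes.

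Of 13 microRNAs known to act on cholesterol and lipids, all 13 were detected, and Mir148a ranked behind Mir122 and Mir223. Mir33, from an intron of Srebf2, a regulator of cholesterol synthesis, shares Abca1 with Mir148a as a known target. It had 35.6 and 99.1 CPM, so Mir148a was above it in both libraries. Mir128-1 and Mir128-2, also known to repress the low-density lipoprotein receptor, summed to 165 and 146 CPM. Reads that match several places were not counted, which can lower such a sum. In this list 3 genes were called, Mir33, Mir144 and Mir27a, all higher in replicate 2, with log2 ratios of 1.54, 1.46 and 1.08, while 4.85% of all tested genes were called in that direction. The median log2 ratio of the list was 0.21, against 0.01 over all tested genes.

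In the hepatocyte and endoderm list, Mir122 at 32583 ± 2693 CPM and Mir192 at 1244 ± 447 CPM (SD, n = 2) were the highest. Mir192, with 928 and 1560 CPM, overlapped with Mir148a in range but was higher in replicate 2 (log2 ratio 0.81, adjusted p = 1.43e-92, exact binomial test). Among its 9 genes only Mir194-1 was called, at 48 and 8 counts, with a log2 ratio of -1.37 (adjusted p = 0.0132, exact binomial test). Of all tested genes, 7.27% were called, and 2.42% were called as higher in replicate 1. The median log2 ratio of the list was -0.37, against 0.01 over all tested genes.

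Reads on the strand opposite to the members were all but missing. Mir148a and Mir148b had 0 such reads in both libraries, and Mir152 had 1 in each, below the 3 counts that a count of 0 allows. The levels of the family thus rest on reads of the annotated strand.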

How the data were processed

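Short RNA from 2 embryonic liver pools was counted per microRNA gene. The deposited counts are whole numbers that are not normalised, aligned to mm10 and counted with GENCODE M4, per the descriptions deposited with them. Alignment software, counting software and trimming are not given in the sources used here. The column of reads on the strand of the gene was used, as read from the layout of the files. Unmapped reads (38.1 and 37.8%), reads mapping to several places (22.0 and 22.6%) and reads with no counted gene on their strand (13.6 and 10.7%) stayed out of library sizes. Library sizes thus hold no reads on the opposite strand of a counted gene, which were 325639 and 167891 in replicates 1 and 2.

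Names came from GENCODE M21 by gene identifier (1894 of 1973 matched). TMM factors came from edgeR 4.0.16 and size factors for an alternative from DESeq2 1.42.0, in R 4.3.3. The biological coefficient of variation that edgeR estimated over the 454 tested genes was 0.26, above the 0.2 assumed for its exact test. Tests used scipy 1.17.1, with 0.5 added to counts for log2 ratios, and folding used RNAfold 2.7.2. The binomial procedure was tested on simulated data with counting noise only, among 452 genes tested. There 0% of 49 genes changed 1.5-fold, 45.8% of 48 changed 2-fold, 78.0% of 50 changed 3-fold and 85.4% of 48 changed 4-fold were called. Of 257 unchanged genes, 0.389% were called. The rates at 1.5-fold and 2-fold follow largely from the 2-fold rule for a call, and variation between pools was not simulated.

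The members, gene lists and tests were chosen with earlier results of these data known. Named were the members, the 2 genes nearest to each in level, the 2 highest and any called genes of 3 lists, and the families next in rank. Other genes named are markers, host genes or neighbours in the genome.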

Additional observations from a re-analysis of the deposited data

How the results depend on the processing

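No paired analysis was possible because both libraries belong to 1 group. The log2 ratios of Mir148a and Mir148b kept their direction under all 7 alternatives (scaling, strand, filters, added count and edgeR's exact test). That of Mir152 lay between -0.066 and -0.0022, too small for its sign to count as a direction. The filters on summed counts leave a log2 ratio unchanged, so they could not test it. No member was called under any alternative, but folds of 1.35, 1.36 and 1.00 lie so far under 2 that this tests little. For Mir148a the adjusted p was 1.42e-30 with the exact binomial test and 0.792 with edgeR's exact test. For Mir148b it was 3.63e-14 and 0.777. Both log2 ratios still count as kept among the 58 recomputed values, as neither was called. Of these 58, 47 kept their call, moved by less than the SD between libraries or, for a count of genes, stayed within 1.5 times. The 47 include the 7 values of each log2 ratio, whose call could hardly change. They also include the shares from reads of either strand, which could hardly move with 0 or 1 opposite-strand reads per member and library. The tally is therefore not a rate of robustness. Levels and shares without 1 library are not among these 58, since with 2 libraries they always move by less than the SD. With all reads of a library as the denominator, which is larger by construction, Mir148a had 404, Mir148b 166, Mir152 41.0 and the family 611 reads per 1000000. For Mir152, whose SD was small, reads of either strand gave 135 CPM and a denominator without Mir126a gave 160 CPM. Counts per base of precursor, by construction, gave shares of 64.1% for Mir148a and 8.97% for Mir152. The family ranked 13 by mean CPM per detected gene. In place of 33 genes, 15 were called from 100 summed counts, where fewer genes are tested, and 1 with edgeR's exact test. Leaving out 1 library in turn gave 1226 to 1725 CPM for Mir148a, 500 to 713 for Mir148b, 145 to 152 for Mir152 and 1871 to 2590 for the family.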

Other observations

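The letters CAGUGCA also stood further along in other mature sequences, and 17 of 1738 (0.978%) held them at some position. In Mir17, Mir106a and Mir106b they began at base 12 of the 5p strand, in Mir139 at base 5. These genes were counted at 77281 and 51029 CPM for Mir17, 561 and 393 CPM for Mir106a, 7297 and 8668 CPM for Mir106b and 4250 and 3286 CPM for Mir139, in replicates 1 and 2. Mir130c, Mir6341 and Mir6389, which open with the same letters as Mir130a, had 0 counts in both libraries. These genes were named after their values were seen.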
